A study of Mus musculus with 12 samples.

Results

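Pre-granulosa-like cells of +KTS KO fetal gonads were selected on measured marker counts. They are cells that hold transcripts of the ovarian genes Foxl2, Fst and Irx3 in mice that make only the -KTS form of WT1. In the 4 +KTS KO libraries, 1539 of 30281 quality cells were selected, 498 of 14510 in XX and 1041 of 15771 in XY gonads. A cell was kept when it had at least 1000 detected genes, at most 10% mitochondrial transcripts, at least 3 unique molecular identifiers (UMIs, 1 for each captured RNA molecule) of Foxl2, Fst and Irx3 together, at least 1 UMI of Foxl2, at most 1 UMI of the testis gene Sox9, and fewer than 10 UMIs of the germ cell genes Dppa5a, Pou5f1, Ddx4 and Dazl. Cells meeting the same thresholds in XX WT gonads, 1906 of 14316, were the comparison.

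The study profiled gonads of mouse embryos at embryonic day 12 (E12) by droplet-based single-cell RNA sequencing, with 2 libraries in each of 6 groups: XX and XY gonads of WT, -KTS KO and +KTS KO embryos. All lines were kept on a mixed B6CBAF1/JRj background. The +KTS KO embryos carry the mutation of the Frasier line, which changes the splice donor site in an intron of Wt1, so that the +KTS form is not made. The mutation is carried by every cell of the embryo and no Cre or transgene was involved. Each WT or +KTS KO library came from the gonads of 1 embryo. Embryos of the +KTS KO libraries were less advanced by tail somite count than those of the XX WT libraries, and replicate 2 of the +KTS KO less than replicate 1, so genotype and stage cannot be told apart. Each library is thus 1 embryo. Each p-value below sets a difference between groups against the spread between embryos of a group. That spread was estimated over the groups fitted together, with information shared across genes. The 3' ends sequenced do not tell +KTS from -KTS transcripts.

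Pre-granulosa cells are the female supporting cells of the fetal gonad, and Sertoli cells are their male counterpart. Both arise from a shared pool of pre-supporting cells. FOXL2, a transcription factor, together with WNT4 and RSPO1 signalling, marks the ovarian side, while SRY and SOX9 direct cells to the testis side, where AMH and DHH are among the first secreted products. FST binds and blocks activins, and IRX3 is a homeobox factor of fetal granulosa cells. WT1 is a zinc finger protein, whose -KTS form binds DNA the more strongly of the 2 forms.

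Summed over all barcodes, a library held 108111924 to 147968666 UMIs, and the 6 libraries compared held 2552093 to 19585130 UMIs in the selected cells. The median selected cell held 11987 to 21109 UMIs, the highest median being that of XX +KTS KO replicate 2. Between 3 and 35 cell barcodes were shared by any of the 66 pairs of libraries, at most 0.365% of a library. XY +KTS KO replicate 1 stood apart from the other 3 mutant libraries. Its selected cells carried a summed level of 22 immediate early genes of 3837 CPM (UMI counts scaled to a common library total), against 1504 to 1559 CPM in the other 3 mutant libraries and 1264 to 1381 CPM in XX WT, and the unselected cells of that library stood at 3445 CPM. Some results that rest on this library are also given without it. The XY calls of Bmper, Bmp5, Tcf21, Cspg4 and Mrap, given below, were among those lost when it was left out.

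The selected cells were a smaller share of the gonad in 3 of the 4 mutant libraries. In XX WT they were 11.8% of the quality cells in replicate 1 (95% Wilson interval 11.05 to 12.55) and 14.8% in replicate 2 (14.0 to 15.7). In XX +KTS KO they were 4.08% (3.70 to 4.50) and 2.17% (1.80 to 2.61), and in XY +KTS KO 11.2% (10.5 to 11.9) and 2.32% (2.01 to 2.67). The intervals cover counting error only. The quality cells include all cell types, and their mix was not adjusted for. The XX mutant libraries lay below both XX WT libraries, while XY +KTS KO replicate 1 lay just below XX WT replicate 1. With Foxl2 of at least 2 UMIs as the only marker threshold, without the sum that holds Fst, the shares were 4.51% and 7.64% in XX WT, 3.54% and 2.49% in the XX mutants, and 7.53% and 2.17% in the XY mutants. The mean then went from 6.08% in XX WT to 3.02% in the XX mutants, a smaller gap than with the sum (13.3% and 3.13%), and XY +KTS KO replicate 1 lay above XX WT replicate 1. This setting also raised the Foxl2 threshold from 1 UMI to 2, so it does not isolate the effect of the sum. Foxl2-positive cells that missed the sum are counted below. With 2 libraries a group no exact permutation test can reach 0.05, and the share is given without a test.

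**Figure D1:**
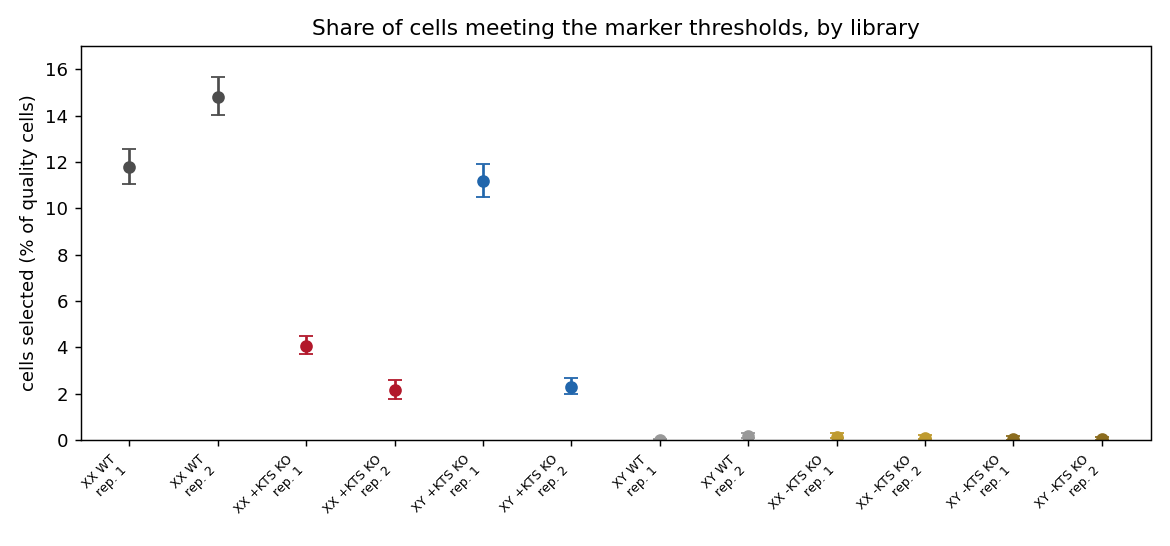
Share of quality cells that met the thresholds in each of the 12 libraries, with 95% Wilson intervals for counting error. The 2 XX WT libraries sit at 11.8% and 14.8%, 3 of the 4 +KTS KO libraries between 2.17% and 4.08%, XY +KTS KO replicate 1 at 11.2%, and the XY WT and -KTS KO libraries under 0.2%.

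Cells of this kind were nearly absent elsewhere in the series. The XY WT libraries held 1 and 12 of them, those of the XX -KTS KO 8 and 6, and those of the XY -KTS KO 4 and 2. XY +KTS KO gonads therefore held such cells at a level that XY WT gonads did not.

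Cells near the threshold on the summed markers were more frequent in the mutants than in XX WT. Among cells that had passed it, the median held 15 and 18 Fst UMIs in the XX WT libraries, 2 and 0 in the XX mutants and 3 and 2 in the XY mutants. A lone Foxl2 UMI, a marker sum of 1, was found in 35 and 63 XX WT cells. The XX mutants held 481 and 216 such cells and the XY mutants 263 and 371. Just below the threshold, cells with Foxl2 and a marker sum of 2 numbered 32 and 47 in XX WT, but 237 and 71 in the XX mutants and 172 and 123 in the XY mutants. Just inside it, cells with a sum of 3 numbered 26 and 33 in XX WT, 124 and 43 in the XX mutants, and 138 and 68 in the XY mutants. The cap on Sox9 removed 165 further Foxl2-positive cells from XY +KTS KO replicate 1, 5 to 10 from each of the other 3 mutant libraries, and 7 and 42 from XX WT replicates 1 and 2. The need for a Foxl2 UMI left out 1754 and 1704 XX WT cells with a sum of at least 3. It left out 461 and 83 such cells in the XX mutants and 570 and 247 in the XY mutants. The unselected cells thus included cells with Fst or Irx3, in the largest numbers in XX WT.

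The levels of the selection genes are a description, since they chose the cells. Foxl2 stood at 126 and 112 CPM in XX WT. It was 126 and 95.7 CPM in XX mutant libraries and 127 and 113 CPM in XY mutant libraries. The rule asks for Foxl2 in every cell, so these like levels are not a result about the cells. Foxl2 made up 7.58% and 8.08% of the marker UMIs of selected XX WT cells and 23.3% to 42.6% of those of mutant cells. Fst was 1413 and 1162 CPM in XX WT, but 241 and 103 CPM in XX mutant libraries and 309 and 177 CPM in XY mutant libraries. Irx3 was 126 and 117 CPM in XX WT and 36.4 and 25.9 CPM in XX +KTS KO. In XY +KTS KO, Irx3 was 110 CPM in replicate 1 and 24.4 CPM in replicate 2, and the first value lies close to XX WT. Fst made up 83.5% to 84.9% of the marker UMIs of selected XX WT cells and 45.8% to 59.7% of those of mutant cells.

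The label was then checked on genes that the selection did not use. Within each library, the selected cells were led over the other cells by Foxl2 and Fst, which the rule used, with Fndc5, Mid1ip1, Ccdc182 and Wnt4 among the genes that followed. Runx1, a transcription factor of the supporting lineage, was 189 and 207 CPM in XX WT, 216 and 194 CPM in XX mutant libraries and 214 and 225 CPM in XY mutant libraries, against 53.9 to 94.5 CPM in the unselected cells of the same 6 libraries. Wnt4 was 798 and 771 CPM in XX WT, 690 and 611 CPM in XX mutant libraries and 511 and 544 CPM in XY mutant libraries. Runx1 overlapped between XX mutant and XX WT libraries, and Wnt4 was lower in every mutant library without passing the test (edgeR adjusted p = 0.441 in XX and 0.0999 in XY). The R-spondin ligand Rspo1 overlapped in both comparisons. Of these genes, which the selection did not use, Runx1 and Wnt4 were present in every library, and the name pre-granulosa-like rests on them. The paper uses Runx1 to mark pre-supporting cells as well. Wnt6, Gadd45g and Nr0b1, of the pre-supporting cell genes, were also higher in selected than in unselected cells of every library. Of 12 ovarian genes outside the selection, edgeR called 4 lower in XX and none higher, and 2 lower and 1 higher in XY. DESeq2 called 4 lower and 1 higher in XY. Whether the cells are closer to pre-granulosa or to pre-supporting cells was not tested.

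Markers of other cell types were found in the sums at differing levels. The 9 macrophage markers summed to 0.302 to 5.59 CPM over the 6 libraries. The 9 endothelial markers summed to 73.1 and 79.3 CPM in XX WT and 35.9 to 178 CPM in the mutants, against 176 to 297 CPM in the unselected cells. The 10 erythroid genes summed to 135 to 8812 CPM over the 6 libraries, with the lowest value in XX +KTS KO replicate 2 and the highest in XY +KTS KO replicate 2. In the unselected cells they summed to 11837.6 and 15598.5 CPM in XX WT and 40376 and 23659 CPM in the XX mutants. In the XY mutants they summed to 5552 CPM in replicate 1 and 40260 CPM in replicate 2. The part of these cells in the share selected was not tested. The 8 perivascular genes summed to 78.5 and 71.3 CPM in XX WT, above the 46.1 and 55.4 CPM of the unselected cells, and to 11.2 to 59.7 CPM in the mutants, with Cspg4 called higher in both sexes and Acta2 lower in XY. The 6 rete and mesonephric duct genes summed to 13.4 to 25.3 CPM in 5 libraries and 55.5 CPM in XY +KTS KO replicate 2, against 17.1 CPM in its unselected cells. No macrophage gene was high enough to be tested, and none of the tested endothelial and erythroid genes was called in XX or XY by edgeR or DESeq2 (unadjusted p under 0.05 for 1 endothelial gene in XY and 1 erythroid gene in XX). The 11 germ cell genes summed to 77.7 to 155 CPM, against 319 to 1177 CPM in the unselected cells, an order that the cap on 4 germ cell genes itself favours. The 15 interstitial progenitor genes summed to 199.6 and 270 CPM in XX WT and 223 to 384 CPM in the mutants, below the 451 to 886 CPM of the unselected cells, with Nr2f2 and Tcf21 called higher in XX and Tcf21 in XY. Without 1 library the adjusted p of Nr2f2 reached 0.29 and that of Tcf21 0.103 in XX and 0.174 in XY, and that of Cspg4 0.209 and 0.234. Their part in the results below was not tested.

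Expression was compared between genotypes on UMI counts summed over the selected cells of each library. edgeR's quasi-likelihood test was fitted across all genes with the 3 groups together, and p-values were adjusted by Benjamini-Hochberg over all genes tested. In XX +KTS KO against XX WT, 801 of 13297 genes passed an adjusted p of 0.05 (6.02%), 367 of them higher (2.76%) and 434 lower (3.26%) in the mutant. In XY +KTS KO against XX WT, tested on autosomal genes because sex differs too, 675 of 12840 genes passed (5.26%), 337 higher (2.62%) and 338 lower (2.63%). Leaving out the sex chromosomes does not separate sex from genotype, so calls in XY cannot be assigned to either. In the contrast of all 4 mutant libraries with XX WT, 1145 genes passed (8.92%), 494 higher (3.85%) and 651 lower (5.07%). The comparisons share the 2 XX WT libraries. Without XY +KTS KO replicate 1, 1690 genes passed in XX and 818 in XY. Without 1 of the other libraries the XX count ran from 136 to 1698 and the XY count from 152 to 1479, XX +KTS KO replicate 2 giving the lowest count in XX and XX WT replicate 1 in XY. Of 168 calls in XX or XY on genes named here or held by a list, 45 passed without each of the 6 libraries in turn, and 123 were lost without at least 1 of them. Such losses are given beside the genes described, for most as the largest edgeR adjusted p without 1 library. Leaving out a library leaves its group with 1 sample, which the fit takes to vary like the other groups.

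Ovarian genes outside the selection were lower in the mutant or not called, with 1 exception. Of 12 such genes, all tested, 4 fell in XX +KTS KO, where 3.26% of all genes did, and none rose, with a median log2 fold change of -1.10 against -0.01 over all genes tested. In XY +KTS KO, 2 fell and 1 rose, where 2.63% and 2.62% of all genes did, with a median of -0.38 against 0.02. These are edgeR calls, and DESeq2 called 4 lower and 1 higher in XY. Kitl, the KIT ligand that supports germ cells, was 567 and 671 CPM in XX WT, 169 and 222 CPM in XX mutant libraries and 200 and 212 CPM in XY mutant libraries. All 4 mutant libraries lay below both XX WT libraries. The log2 fold change of Kitl was -1.67 ± 0.20 (SE; edgeR adjusted p = 0.00303) in XX and -1.59 ± 0.20 (edgeR adjusted p = 0.00446) in XY. Lgr5, an R-spondin receptor, fell too, from 6.82 and 6.91 CPM in XX WT to 0.987 and 0.751 CPM in XX mutant libraries and 1.51 and 1.81 CPM in XY mutant libraries (edgeR adjusted p = 0.00643 and 0.0144). Kitl in XX passed except without XX +KTS KO replicate 1 (edgeR adjusted p = 0.0504). The call of Lgr5 was lost without any 1 of 3 libraries in each sex (edgeR adjusted p up to 0.0653 in XX and 0.142 in XY), XX WT replicate 1 in both, and also under stricter marker thresholds (0.509 and 0.275).

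Bmp2 fell in XX but was split between the XY libraries. Bmp2, a secreted ligand, was 60.9 and 54.9 CPM in XX WT, 12.2 and 10.5 CPM in XX mutant libraries and 33.2 and 9.36 CPM in XY mutant libraries (edgeR adjusted p = 0.0218 in XX and 0.119 in XY). The XY library that lay nearer to XX WT was replicate 1. The difference between XX and XY mutants was tested across all genes and Bmp2 did not pass. In XX, its call was lost without 3 of the 4 XX libraries, XX WT replicate 1 and both mutant replicates (edgeR adjusted p up to 0.175).

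Cst12, a cystatin of pre-granulosa cells and the only ovarian gene to rise, was a marker named in advance for these cells. The rule did not use it to select them. Cst12 was 15.0 and 17.7 CPM in XX WT, 69.2 and 41.3 CPM in XX mutant libraries and 234 and 56.1 CPM in XY mutant libraries. All mutant libraries lay above XX WT. The log2 fold change was 3.16 ± 0.57 in XY (SE; edgeR adjusted p = 0.0183) and 1.77 ± 0.56 in XX, where it did not pass (edgeR adjusted p = 0.111). The highest library was XY +KTS KO replicate 1. Cst12 passed in XY without either mutant library, but not without XX WT replicate 1 (edgeR adjusted p = 0.119) or XX WT replicate 2 (0.0669).

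**Figure D2:**
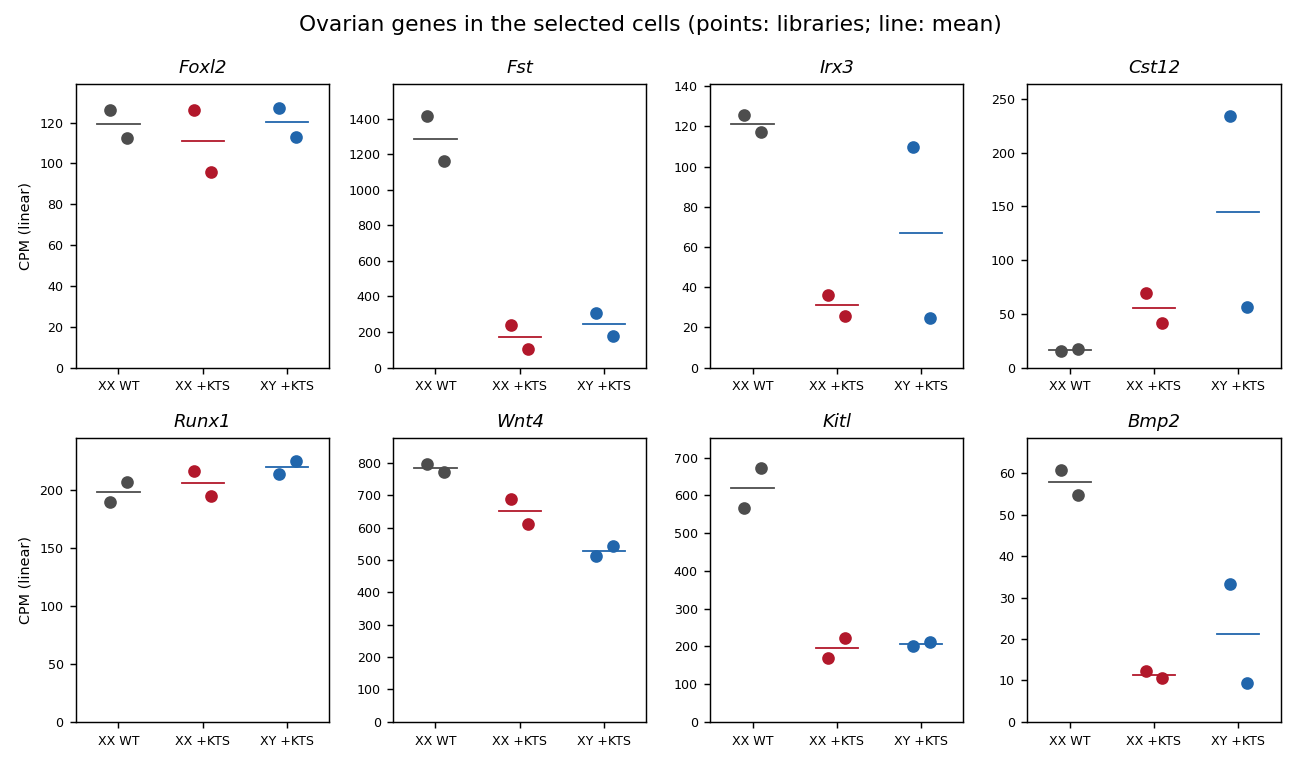
CPM (linear axis from 0) of 8 ovarian genes in the selected cells, with 1 point per library and a line at the mean of 2. Foxl2 and Runx1 lie at like levels in the 3 groups, Fst and Kitl lie lower in all 4 mutant libraries, and Irx3, Cst12 and Bmp2 differ between the 2 XY +KTS KO libraries; Foxl2, Fst and Irx3 chose the cells.

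Some genes of the testis pathway were higher in the selected mutant cells. Of 12 Sertoli cell genes, 8 were tested, and 3 rose in XX +KTS KO (Amh, Dhh and Ptgds) and 4 in XY +KTS KO (the same 3 and Sox8), with none lower, where 2.76% and 2.62% of all genes tested were called higher. A gene near 0 in XX WT could enter the test through the mutant libraries alone, so the count is a description of the 8 tested genes. Sry was listed at 0 in all 4 XX libraries and at 0.328 and 0.604 CPM in XY +KTS KO. Sox9, capped by the rule, was 2.96 and 4.13 CPM in XX mutants, 9.99 and 4.23 CPM in XY mutants, and 3.04 and 4.95 CPM in XX WT, levels that the cap itself sets.

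Amh, the hormone that removes the Mullerian ducts in males, had the largest rise of the named genes. It was 0.829 and 0.516 CPM in XX WT, a mean of 0.673 ± 0.222 (SD, n = 2 libraries), 51.8 and 31.9 CPM in XX mutant libraries and 37.8 and 41.0 CPM in XY mutant libraries. Each mutant library lay above both XX WT libraries by more than the spread between replicates. The log2 fold change was 6.03 ± 0.35 (SE; edgeR adjusted p = 0.000326) in XX and 5.92 ± 0.35 (edgeR adjusted p = 0.000681) in XY, and Amh passed in all 16 alternative settings in each. These settings include leaving out each library in turn. The receptor gene Amhr2 was 451 and 404 CPM in XX WT and 273 to 345 CPM in the mutants, which did not pass (edgeR adjusted p = 0.217 and 0.213).

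Amh was found in a minority of the selected mutant cells. After each cell was thinned to 5000 UMIs, leaving out 63 shallower cells of XY +KTS KO replicate 1 and 0 to 5 of the other libraries, 0.241% and 0.187% of selected XX WT cells held an Amh UMI. The shares were 17.4% and 13.1% in the XX mutants and 15.6% and 15.3% in the XY mutants. Before thinning they were 0.838% and 0.934% in XX WT and 29.1% to 32.8% in the mutants. In endothelial cells, thinned likewise, the share was 0% to 1.90% in the 6 libraries, so the mutant shares stood above this background. In the unselected cells of the mutant libraries, Amh was 5.83 to 19.8 CPM, lower than in the selected cells of the same library.

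Dhh, a hedgehog ligand of Sertoli cells, was 0.921 and 0.774 CPM in XX WT, 11.2 and 9.76 CPM in XX mutant libraries and 12.9 and 11.8 CPM in XY mutant libraries. Ptgds, a prostaglandin D synthase, was 13.5 and 14.3 CPM in XX WT, 86.9 and 31.5 CPM in XX mutant libraries and 119 and 51.9 CPM in XY mutant libraries. Both rose in both sexes (edgeR adjusted p = 0.00107 and 0.000919 for Dhh, 0.0379 and 0.0193 for Ptgds). Dhh passed without each library in turn, but not in XX when cells were thinned before they were selected (edgeR adjusted p = 0.221). Ptgds did not pass in XX without XX WT replicate 1, XX WT replicate 2 or XX +KTS KO replicate 1 (edgeR adjusted p up to 0.309), nor in XY without either XX WT library (up to 0.119), and Sox8 was lost in XY without any 1 library other than XY +KTS KO replicate 2 (up to 0.33) and in DESeq2 (DESeq2 adjusted p = 0.0745). Fgf9 was 0.369 and 1.03 CPM in XX WT and 1.48 to 2.04 CPM in the mutants (edgeR adjusted p = 0.488 and 0.281). The testis genes Aard, Mro and Cst9 did not pass in either sex.

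A minority of the steroid hormone synthesis genes were higher. Of 21 such genes, 20 were tested; 5 rose and 1 fell in XX +KTS KO, and 3 rose in XY +KTS KO. Of all genes tested, 2.76% rose and 3.26% fell in XX, and 2.62% rose in XY. The summed level of the list overlapped between genotypes, at 3515 and 2397 CPM in XX WT and 2302 to 4407 CPM in the mutants. Cyp11a1, the enzyme that turns cholesterol into pregnenolone, was 40.8 and 38.4 CPM in XX WT, 268 and 402 CPM in XX mutant libraries and 93.1 and 284 CPM in XY mutant libraries. The lowest mutant library stood above both XX WT libraries. The log2 fold change was 3.08 ± 0.47 (SE; edgeR adjusted p = 0.00774) in XX and 2.23 ± 0.45 (edgeR adjusted p = 0.028) in XY. Star, which carries cholesterol into mitochondria, was 5.34 and 3.61 CPM in XX WT, 16.3 and 21.8 CPM in XX mutant libraries and 24.4 and 7.85 CPM in XY mutant libraries. Scarb1, the receptor for high density lipoprotein, rose in both sexes too (edgeR adjusted p = 0.00364 and 0.00503). Scarb1 passed without each library in turn. Of the 5 genes that rose in XX, 2 passed under stricter marker thresholds, and 1 still passed without XX WT replicate 1 or without XX +KTS KO replicate 2. Cyp11a1 was lost in XX without either of these (edgeR adjusted p = 0.0506 and 0.0726) and in XY without any 1 of the 4 XX libraries (up to 0.146), and Star in XX without any 1 of those 4 (up to 0.207) and in XY also without XY +KTS KO replicate 1 (up to 0.259). In XX, Hsd17b1 and Cyp17a1 rose and Tspo fell, calls that were lost without any 1 of the 4 XX libraries (edgeR adjusted p up to 0.35, 0.107 and 0.284). Hsd3b1, which acts next after Cyp11a1, was 0.658 and 1.502 CPM in XX +KTS KO and 2.49 and 1.03 CPM in XX WT, and did not pass. The 6 fetal Leydig cell genes, of which Star and Cyp17a1 are also in this list, summed to 13.4 and 11.5 CPM in XX WT, 31.1 and 41.7 CPM in XX mutant libraries and 45.4 and 19.01 CPM in XY mutant libraries. The unselected cells held 13.0 to 14.5 CPM in XX WT and 20.7 to 31.6 CPM in the mutants, and the part of this list in the result was not tested.

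A larger share of mutant than of XX WT cells held Cyp11a1. In cells thinned to 5000 UMIs, 13.7% and 14.5% of selected XX WT cells held a Cyp11a1 UMI, against 61.4% and 66.4% in XX +KTS KO. In XY +KTS KO the share was 33.0% in replicate 1 and 63.5% in replicate 2. Without thinning the shares were 23.6% and 30.6% in XX WT and 58.1% to 89.9% in the mutants. Endothelial cells held 0.410% to 5.23%. Cells with both a Cyp11a1 and an Inha UMI made up 6.39% and 7.39% in XX WT, 50.1% and 55.1% in the XX mutants, and 19.6% and 52.9% in the XY mutants. XY +KTS KO replicate 1 lay between XX WT and the other mutant libraries on each of these shares. Selected cells were also set against the unselected cells of their library, as a log2 ratio with 5 CPM added. For Cyp11a1 it was 1.20 and 1.30 in XX WT and 1.14 to 1.61 in the mutants. For Inha it was 1.49 and 1.41 in XX WT and 1.07 to 1.41 in the mutants. The rise of both genes was thus present in the unselected cells too.

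Of the activin and inhibin genes, 14 of 15 were tested; 3 rose in XX +KTS KO (Inha, Inhbb and Smad7) and 2 in XY +KTS KO (Inhbb and Smad7), where 2.76% and 2.62% of all genes did. Inha, the alpha subunit that makes inhibin, was 127 and 126 CPM in XX WT, 375 and 404 CPM in XX mutant libraries and 174 and 459 CPM in XY mutant libraries (edgeR adjusted p = 0.0391 in XX and 0.0891 in XY). An Inha UMI was found in 39.5% and 41.4% of thinned XX WT cells, 74.4% and 80.4% of thinned XX mutant cells, and 57.0% and 79.9% of thinned XY mutant cells. Inhbb, a beta subunit shared by inhibin and activin, was 51.6 and 58.7 CPM in XX WT, 107 and 106 CPM in XX mutant libraries and 123 and 88.4 CPM in XY mutant libraries. These 3 genes lay above XX WT in all 4 mutant libraries. The calls of Inha in XX and of Inhbb and Smad7 in each sex were lost without any 1 of the 4 XX libraries (edgeR adjusted p up to 0.209 for Inha, 0.222 and 0.263 for Inhbb, and 0.297 and 0.143 for Smad7).

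**Figure D3:**
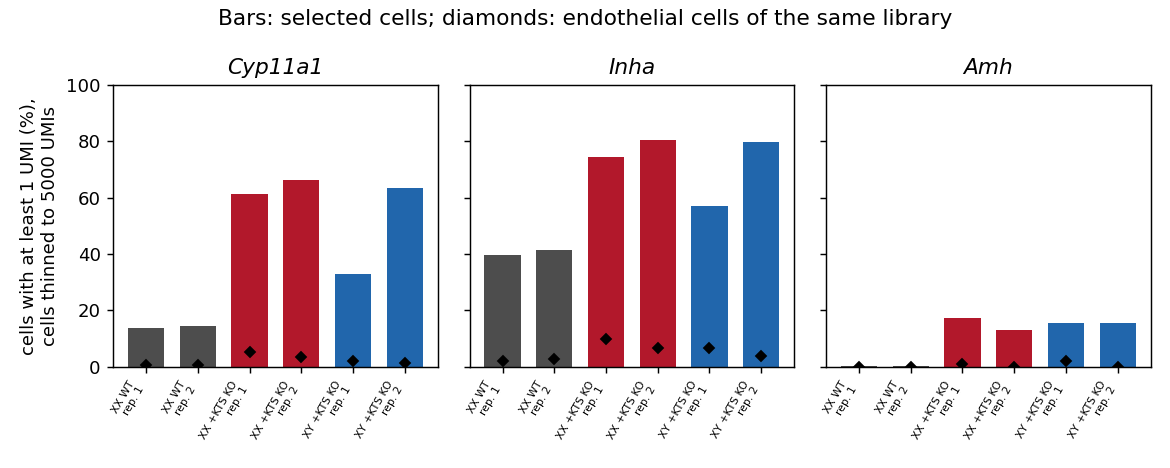
Percent of selected cells (bars) and of endothelial cells of the same library (diamonds) with at least 1 UMI of Cyp11a1, Inha and Amh, after every cell was thinned to 5000 UMIs. Cyp11a1 stands at 13.7% and 14.5% in XX WT and 33.0% to 66.4% in the mutants, and Amh under 0.3% in XX WT and between 13.1% and 17.4% in the mutants.

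Beside Amh, the largest rises in both sexes included Pnmt, Ren1, Olfml3, Ctrb1 and Gsg1l. Pnmt, the enzyme that makes adrenaline, was 2.76 and 2.22 CPM in XX WT, 118 and 117 CPM in XX mutant libraries and 37.2 and 75.5 CPM in XY mutant libraries. Its log2 fold change was 5.57 ± 0.37 in XX (SE; edgeR adjusted p = 0.000524) and 4.48 ± 0.36 in XY (edgeR adjusted p = 0.000919). Ren1, which encodes renin, was 1.11 and 0.825 CPM in XX WT and 18.7 to 62.7 CPM in the mutants. Olfml3, a secreted matrix protein, was 3.87 and 7.58 CPM in XX WT and 89.2 to 183 CPM in the mutants. Ctrb1, a digestive protease, was 7.19 and 5.05 CPM in XX WT and 58.6 to 188 CPM in the mutants. In all 3 of these genes every mutant library lay above both XX WT libraries, and each rose in both sexes. Gsg1l, an auxiliary subunit of glutamate receptors, was 1.66 and 1.44 CPM in XX WT and 22.9 to 55.2 CPM in the mutants.

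Like Cyp11a1 and Inha, the genes Ren1, Hsd11b2 and Pnmt lay higher in the unselected cells of the mutants than in those of XX WT. Hsd11b2, which inactivates corticosterone, was 4.51 and 2.99 CPM in the selected XX WT cells and 42.9 to 55.2 CPM in the selected mutant cells, and in the unselected cells 13.1 and 13.4 CPM in XX WT and 43.1 to 54.0 CPM in the mutants. Ren1 in unselected cells was 1.31 and 2.25 CPM in XX WT and 15.8 to 35.8 CPM in the mutants. The other cells of the mutant gonads thus carried Ren1 and Hsd11b2 at levels near those of the selected cells. For Pnmt the log2 ratio of selected to unselected cells was taken with 5 CPM added. It was 0.379 and 0.249 in XX WT and 1.17 to 1.74 in the mutants. Whether the difference between genotypes was larger in the selected than in the other cells was not tested.

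The largest falls included Tph2, Vgll2 and Ugt2b36, all near 0 in the mutants, while the rule for naming falls asks for at least 20 CPM in XX WT. Tph2, a serotonin synthesis enzyme, was 28.7 and 26.4 CPM in XX WT and 0 to 1.12 CPM in the mutants. Vgll2, a transcription cofactor, was 35.7 and 41.2 CPM in XX WT and 0.329 to 2.11 CPM in the mutants. Ugt2b36, a glucuronosyltransferase, was 24.0 and 23.2 CPM in XX WT and 0 to 0.854 CPM in the mutants. The log2 fold changes of Tph2, Vgll2 and Ugt2b36 were -6.29, -6.01 and -6.07 in XX and -4.77, -5.62 and -5.12 in XY, with edgeR adjusted p from 0.000789 to 0.00215. All 3 passed in both sexes without each library in turn, as did Pnmt, Ren1, Olfml3, Ctrb1, Gsg1l and Hsd11b2 among the rises. Pnliprp2 and Acta2 passed in XY and not in XX, a difference between sexes that was not called when tested across genes, and without XX WT replicate 2 or replicate 1, respectively, they did not pass in XY either (edgeR adjusted p = 0.0659 and 0.0757). Acta2, smooth muscle actin and a member of the perivascular list, was 69.9 and 60.6 CPM in XX WT, 2.80 and 42.4 CPM in XX mutant libraries and 2.56 and 1.21 CPM in XY mutant libraries.

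A short GC-rich word that WT1 and EGR proteins are known to bind, GCGNGGGNG read on both strands, was looked for in the promoters of the 24 genes named for the contrast of all mutant libraries with XX WT. RefSeq promoters (GRCm38.p6, 250 bases before to 50 after the start) were matched for 6 of the 12 higher and 8 of the 12 lower genes, and 2 of each held the word, against 12.3% of 32851 promoters. Sequences are shown for 1 higher and 1 lower gene among those that held the word, Olfml3 and Vgll2. Both moved by more than 4 log2 units, as did Ren1, Tph2 and Ugt2b36, whose promoters held no match. The capitals mark the word or its reverse complement, which starts 18 bases before the start site in Olfml3 and 91 before it in Vgll2. The Olfml3 promoter lies at chr3:103737952-103738251 on the minus strand and that of Vgll2 at chr10:52022252-52022551 on the plus strand.
Olfml3: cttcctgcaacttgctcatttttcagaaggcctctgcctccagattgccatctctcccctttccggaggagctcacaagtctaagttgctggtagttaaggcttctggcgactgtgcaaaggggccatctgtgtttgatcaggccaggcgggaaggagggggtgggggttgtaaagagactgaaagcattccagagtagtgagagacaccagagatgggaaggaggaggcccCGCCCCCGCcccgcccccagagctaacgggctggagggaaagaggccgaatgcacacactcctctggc
Vgll2: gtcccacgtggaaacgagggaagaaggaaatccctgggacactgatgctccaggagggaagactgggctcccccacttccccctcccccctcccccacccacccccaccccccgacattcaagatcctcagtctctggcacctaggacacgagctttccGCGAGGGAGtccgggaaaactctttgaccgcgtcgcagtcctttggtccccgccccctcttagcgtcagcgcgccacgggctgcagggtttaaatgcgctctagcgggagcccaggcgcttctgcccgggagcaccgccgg
A match is a description of these letters and not a binding site.

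**Figure D4:**
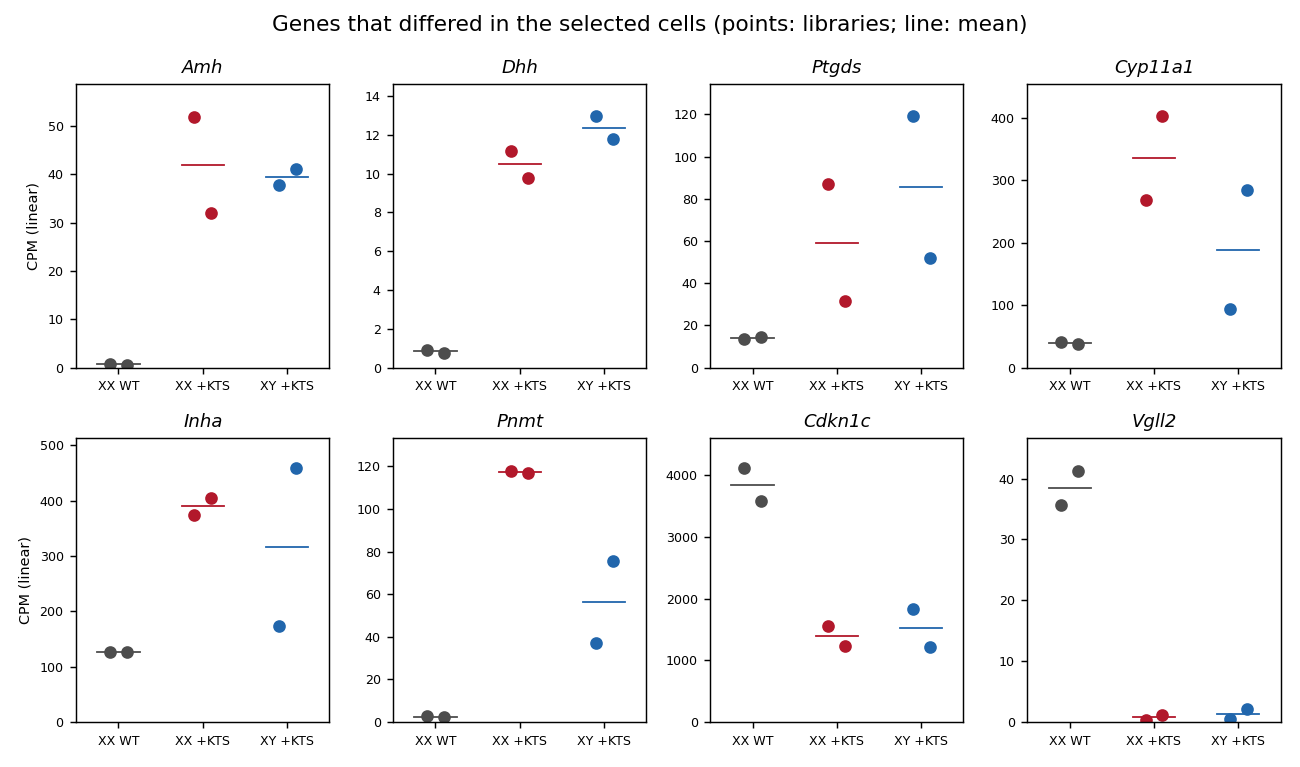
CPM (linear axis from 0) of 8 genes in the selected cells, with 1 point per library and a line at the mean of 2. The first 6 genes lie higher in all 4 mutant libraries than in both XX WT libraries (the Amh values run from 31.9 to 51.8 against 0.516 and 0.829), and Cdkn1c and Vgll2 lie lower in all 4.

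Genes of cell division were higher in XX mutant cells under the thresholds used, but not called among cells richer in Fst. Of 22 mitosis genes, 11 rose in XX +KTS KO, where 2.76% of all genes did, and none fell, with a median log2 fold change of 1.05. Among selected cells with at least 3 Fst UMIs, a setting chosen after seeing the data, 0 of these 11 passed in edgeR (2 had an unadjusted p under 0.05), and their median log2 fold change went from 1.32 to 0.69. Under stricter marker thresholds, 0 of the 11 passed (2 with an unadjusted p under 0.05) and the median was 0.73. When cells were thinned before selection, 4 of the 11 could be tested and 0 passed (2 with an unadjusted p under 0.05). Their log2 fold changes ran from -0.41 to 2.11. XX +KTS KO replicate 1 kept 176 cells with at least 3 Fst UMIs, 75 under stricter thresholds and 105 after thinning, of 391. Replicate 2 kept 33, 19 and 17, of 107. Whether the smaller cell numbers account for the lost calls was not tested. With Foxl2 as the only marker threshold, 4 of the 11 passed, all 11 had an unadjusted p under 0.05, and the median was 1.34. Doublets left out, all 11 passed with a median of 1.96. Without XX WT replicate 1, XX +KTS KO replicate 1 or XX +KTS KO replicate 2, only 1 of the 11 passed, Nusap1. In XY +KTS KO, where 2.62% of all genes rose, 1 of the 22 did (Nusap1), with a median of 0.80. DESeq2 called 10 of the 22 higher in XX and 4 in XY. Nusap1, which binds spindle microtubules, was 9.95 and 11.6 CPM in XX WT, 32.7 and 36.0 CPM in XX mutant libraries and 24.9 and 22.3 CPM in XY mutant libraries. The 22 genes summed to 292 and 450 CPM in XX WT, 825 and 765 CPM in XX mutant libraries and 624 and 636 CPM in XY mutant libraries, against 1843 to 2527 CPM in the unselected cells. Cells with at least 2 UMIs of these genes after thinning were 9.16% and 11.8% in XX WT and 13.2% to 18.7% in the mutants. Nusap1 in XY was lost without either XX WT library (edgeR adjusted p = 0.143 and 0.0679). Of 22 DNA replication genes, 0 were called in XX by edgeR (2 with an unadjusted p under 0.05) and 1 by DESeq2, and 1 in XY (Mcm5, edgeR adjusted p up to 0.195 without 1 library).

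The cell cycle inhibitor Cdkn1c, an imprinted gene, was 4118 and 3576 CPM in XX WT, 1553 and 1238 CPM in XX mutant libraries and 1825 and 1208 CPM in XY mutant libraries. Cdkn1b was 287 and 283 CPM in XX WT, 93.6 and 139 CPM in XX mutant libraries and 113 and 148 CPM in XY mutant libraries. Both fell in both sexes (edgeR adjusted p = 0.011 and 0.0183 for Cdkn1c, 0.0133 and 0.0265 for Cdkn1b). Cdkn2b, another inhibitor, rose from 0.737 and 1.24 CPM in XX WT to 6.38 to 13.0 CPM in the mutants. Its XX call was lost under stricter marker thresholds (edgeR adjusted p = 0.294) and with cells thinned before selection (0.323). In XX, Cdkn1c was lost without 3 of the 4 XX libraries, XX WT replicate 1 and both mutant replicates, Cdkn1b without any 1 of the 4, and Cdkn2b without XX +KTS KO replicate 1 (edgeR adjusted p up to 0.136, 0.141 and 0.0653). In XY, Cdkn1c and Cdkn1b were lost without either XX WT library (up to 0.124 and 0.143).

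Transcription factors of the early gonad were mostly not called. Of 14, 13 were tested, and Nr5a1 and Tcf21 rose and Lhx9 fell in each sex. Over all genes tested, the shares called higher and lower were 2.76% and 3.26% in XX and 2.62% and 2.63% in XY. Nr5a1, the steroidogenic factor, was 39.3 and 42.1 CPM in XX WT, 79.1 and 90.5 CPM in XX mutant libraries and 98.7 and 69.1 CPM in XY mutant libraries. Lhx9 was 263 and 273 CPM in XX WT, 118 and 74.7 CPM in XX mutant libraries and 137 and 73.6 CPM in XY mutant libraries. Gata4 overlapped in both comparisons. In each sex, the calls of Nr5a1 and Lhx9 were lost without any 1 of the 4 XX libraries (edgeR adjusted p up to 0.167 and 0.189 for Nr5a1, 0.233 and 0.158 for Lhx9). Wt1, whose splicing is altered, was 329 and 326 CPM in XX WT and 230 to 318 CPM in the mutants (edgeR adjusted p = 0.406 in XX and 0.641 in XY). Of the pre-supporting cell genes, Sprr2d was 404 and 318 CPM in XX WT and 29.6 to 80.1 CPM in the mutants and fell in both sexes (edgeR adjusted p = 0.0063 and 0.00425), while Wnt6 and Gadd45g were not called. Of the 9 genes of that list, all tested in XX, 2 rose there (Nr5a1 and Nr0b1) and 2 fell (Sprr2d and Lgals7), beside the same 2.76% and 3.26% of all genes. Nr0b1, a nuclear receptor on the X chromosome, was 100.2 and 91.8 CPM in XX WT, 202 and 211 CPM in XX mutant libraries and 122 and 230 CPM in XY mutant libraries (edgeR adjusted p = 0.0492 in XX, up to 0.253 without 1 library). Lgals7, a galectin, was called lower in XX (edgeR adjusted p = 0.0491, up to 0.268 without 1 library) and not in XY (edgeR adjusted p = 0.127). Sprr2d did not pass in XX without XX +KTS KO replicate 2 (edgeR adjusted p = 0.0601).

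In the signalling lists, few genes passed, and for each list the count in XX and XY follows, to be read against the 2.76% and 2.62% of all genes called higher and the 3.26% and 2.63% called lower. The share of Wnt and R-spondin genes that rose in XX lay near that background. Of the Wnt and R-spondin genes, 1 rose and 3 fell of 33 tested, and 2 rose and 1 fell of 32. Of the BMP genes, 1 rose and 2 fell of 16, and 1 rose and 1 fell of 16, with Bmper higher and Bmp5 lower in both. Of the Notch genes, 2 rose of 12 in each, Heyl and Lfng. Of the FGF genes, 2 rose of 14 in each, Dusp6 and Fgf18, and Fgfr2 fell in XX. Of the IGF genes, 2 rose and 3 fell of 14, and 1 rose and 2 fell of 14, with Igf1 and Igfbp4 lower and Igfbp7 higher in both sexes. Of the retinoid genes, 0 rose and 2 fell of 14 in XX (Stra6 and Aldh1a1), calls that were lost without any 1 of the 4 XX libraries (edgeR adjusted p up to 0.229 and 0.248). In XY, 0 of 14 retinoid genes were called by edgeR (3 with an unadjusted p under 0.05) and 0 by DESeq2. Igf1 was 96.7 and 80.1 CPM in XX WT and 26.1 to 46.8 CPM in the mutants. Of the basement membrane and integrin genes, 3 rose of 23 in XX and 4 of 21 in XY, with none lower. The chains Col4a1, Col4a2 and Lama1 rose in both, Col4a1 from 55.9 and 71.8 CPM in XX WT to 139 to 210 CPM in the mutants. Without XX WT replicate 1, none of these signalling and matrix genes named for both sexes passed in XY other than Igfbp7, which passed without each library in turn. In XX, Igfbp7 was lost under stricter marker thresholds (edgeR adjusted p = 0.628) and among cells with at least 3 Fst UMIs (0.119), and in XY with Foxl2 as the only marker threshold (0.0727). In XX too, each of the others was lost without at least 1 library. Other settings lost some of these calls too. With cells thinned before selection, the edgeR adjusted p was 0.684 for Dusp6 and 0.307 for Fgf18 in XX, and 0.576 for Fgf18 in XY. Under stricter marker thresholds it was 0.359 for Lfng and 0.245 for Heyl in XX. Col4a2 passed under either setting in each sex.

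**Figure D5:**
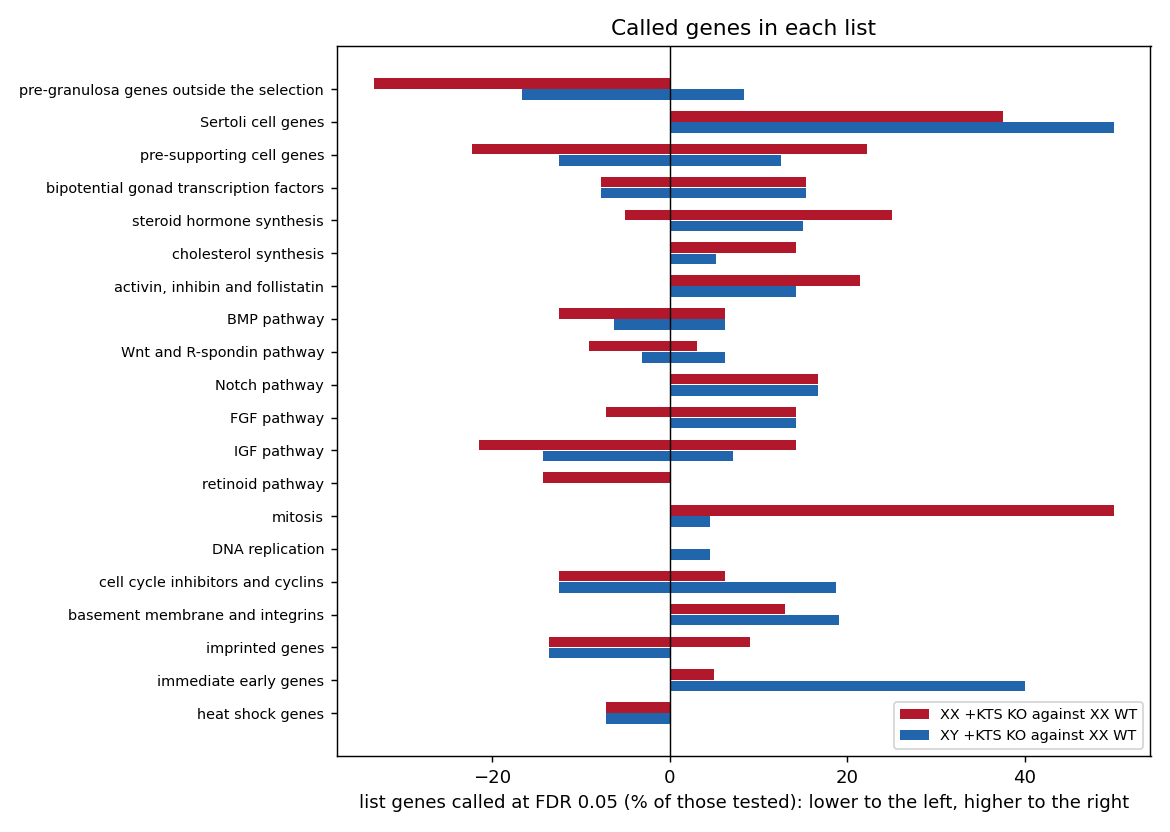
For each of 20 gene lists, the percent of tested genes called higher (right) and lower (left) at an adjusted p of 0.05 in XX (red) and XY (blue) +KTS KO against XX WT. The longest bars to the right include mitosis in XX (11 of 22 higher), the Sertoli list (3 of 8 in XX and 4 of 8 in XY, 3 in DESeq2) and immediate early genes in XY (8 of 20 higher), and 4 of 12 ovarian genes outside the selection are lower in XX; of the 11 mitosis calls, 0 remained among cells with at least 3 Fst UMIs.

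Immediate early genes, which cells switch on within minutes of stress or stimulation, were called higher for 8 of 20 tested in XY +KTS KO and 1 of 20 (Ier5, up to an edgeR adjusted p of 0.06 without 1 library) in XX +KTS KO. Of all genes tested, 2.62% rose in XY and 2.76% in XX, and the XX count lay near that background. The XY calls include Junb, Nr4a1 and Egr1. Junb was 14.5 and 12.8 CPM in XX WT, 122 and 31.9 CPM in XX mutant libraries and 326 and 62.8 CPM in XY mutant libraries. Egr1 was 20.3 and 13.9 CPM in XX WT, 41.1 and 43.9 CPM in XX mutant libraries and 240 and 33.8 CPM in XY mutant libraries. In each of these genes XY +KTS KO replicate 1 was the highest library by more than the spread of the other 3 mutant libraries, and its unselected cells stood at 261 CPM for Junb and 244 CPM for Egr1. Of the 8 XY calls, 5 passed without this library, 0 without XX WT replicate 1 and 1 without XX WT replicate 2. Nr4a1 was lost without XY +KTS KO replicate 1 (edgeR adjusted p = 0.0725), and Egr1 missed the threshold in DESeq2 (DESeq2 adjusted p = 0.0559).

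Between the sexes of the mutant, the number of genes called depended on the libraries and the filter. In XY against XX +KTS KO, 1 of 12840 autosomal genes passed (0.00779%), which was lower (0.00779%), and 0 were higher (0%), while 476 had an unadjusted p under 0.05 and DESeq2 called 5. Without XY +KTS KO replicate 2 the count was 187, without XY +KTS KO replicate 1 it was 7, without XX WT replicate 1 or either XX mutant library it was 0, and without the filter on low counts it was 241. The gene, Arf5, a small GTPase of vesicle transport, was 250 and 223 CPM in XX mutants, 52.4 and 65.2 CPM in XY mutants, and 201 and 187 CPM in XX WT. The XY libraries lay below all 4 others. Its log2 fold change from XX to XY was -2.02 ± 0.18 (SE; edgeR adjusted p = 0.0284). It did not pass without XX WT replicate 1 (0.0505), XX +KTS KO replicate 1 (0.29) or XX +KTS KO replicate 2 (0.187), nor with a replicate block (0.0661). In unselected cells it was 210 and 219 CPM in XX and 43.4 and 59.8 CPM in XY, so the difference was present in both kinds of cell.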

How the data were processed

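Gonads were dissociated with trypsin and sequenced with the 10x Genomics 3' chemistry (v2 in the labels, v3 in the methods). The authors deposited raw UMI counts per gene and barcode, made with Cell Ranger 6.0 on mm10, without normalization and 1 library per sample. No doublets were removed in the main analysis. Gene positions came from GENCODE M21 (32235 of 32285 features matched).

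Counts were summed per library over the selected cells and tested with edgeR 4.0.16 (TMM scaling, filterByExpr, quasi-likelihood F test, 3 groups in 1 fit, adjusted p of 0.05). Levels are TMM-scaled CPM in the selected cells and plain CPM in the other cells. Selection and mitochondrial genes were not tested. The test was tried on simulated counts with planted changes. The p-values of the unchanged genes were not too small, but where genes differed in spread, false calls exceeded the nominal rate. The calls above may thus hold more false calls than their adjusted p states. Alternatives used DESeq2 1.42.0 and doublet scores (Scrublet in scanpy 1.11.5). Scripts ran under R 4.3.3 and Python 3.11.15.

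The study's test over cells was replaced, since cells of 1 library are not replicates. The members and lists were chosen with earlier results of these data known. Named genes are, per comparison, the 12 largest rises and 12 largest falls with an adjusted p under 0.05, no overlap between libraries and a mean of at least 20 CPM on the higher side, plus the selection genes and the lists. Some genes that the rule or a list takes are not reported here, though list counts hold them. Equal replicate numbers did not pair samples (correlations of deviations of 0.018, -0.181 and 0.080).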

Additional observations from a re-analysis of the deposited data

Results flagged for a closer look

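In the set of 4 +KTS KO libraries, 74 values were searched for a library whose gap to the nearest other, over the whole range, passed Dixon's 95% critical value. Chance flags about 1 in 20 such sets, and 15 were flagged. XY +KTS KO replicate 1 was the library apart in 6 of them. Its thinned cells held Cyp11a1 in 33.0% of cells and both Cyp11a1 and Inha in 19.6%, and its summed level was 3837 CPM for immediate early genes and 185 CPM for FGF genes, with Cst12 at 234 CPM and Bmp2 at 33.2 CPM. XY +KTS KO replicate 2 was apart for epithelial keratins and junctions at 573 CPM, interstitial progenitor genes at 223 CPM, rete and mesonephric duct genes at 55.5 CPM, and Myl1 at 49.5 CPM. XX +KTS KO replicate 1 was apart for endothelial genes at 178 CPM and macrophage genes at 5.59 CPM. XX +KTS KO replicate 2 was apart for perivascular genes at 59.7 CPM, 2210407C18Rik at 14.6 CPM and Acta2 at 42.4 CPM.

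Arf5 differed between the XX and XY +KTS KO by the edgeR test of that difference, with a log2 fold change of -2.02.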

How the results depend on the processing

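Counts of called genes moved with the libraries, at 2 embryos a group, and with the filter on low counts. With 1 library left out, the count ran from 136 to 1698 in XX, 152 to 1479 in XY, 314 to 2094 over both sexes, and 0 to 187 between XY and XX +KTS KO. The lowest came without XX +KTS KO replicate 2 in XX and without XX WT replicate 1 in the others (between the mutants also without either XX +KTS KO library), and the highest without XY +KTS KO replicate 2. Without the filter on low counts 1795, 1629, 241 and 2112 genes passed in XX, XY, XY against XX and both sexes, where edgeR's prior degrees of freedom became infinite. With the compared groups alone, 1703 passed in XX, 413 in XY and 2 between the mutants, and with DESeq2 5 passed between the mutants. Stricter thresholds gave 484 in XX and 2 between the mutants, and cells thinned before selection gave 391 in XX, 5 between the mutants and 625 over both sexes. Stricter thresholds were a marker sum of at least 6, Foxl2 of at least 2 and no Sox9 UMI. Cells with at least 3 Fst UMIs, a setting chosen after seeing the data, gave 551, 634, 1 and 899. A replicate block gave 822, 637 and 1105, and 0 between the mutants (450 with an unadjusted p under 0.05), but the numbers do not pair the samples.

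The mean share of selected cells was 13.3% in XX WT and 3.13% in XX +KTS KO. It became 5.03% and 0.584% under stricter thresholds and 6.46% and 0.759% after thinning. With Foxl2 of at least 2 UMIs as the only marker threshold it became 6.08% and 3.02%. Of 276 named calls, 75 passed in every setting that tested them. Of 4207 alternative values, 3350 kept direction and call, 855 lost the call and 2 reversed: Ube2c in XX at -0.41 with cells thinned before selection, and Kif11 in XX at -0.24 with at least 3 Fst UMIs. The causes were not tested.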

Other observations

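Other lists described the same cells, where 2.76% of all genes tested were called higher and 3.26% lower in XX, and 2.62% and 2.63% in XY. Of 22 imprinted genes, 2 rose (Zim1 and Dlk1) and 3 fell (Mest, Ndn and Cdkn1c) in XX +KTS KO, and 3 fell in XY (Mest, Cdkn1c and Phlda2). Of 21 cholesterol synthesis genes, 3 rose in XX (Mvk, Msmo1 and Mvd), and in XY 1 of 19 tested rose (Msmo1). Of 14 heat shock genes, 1 fell in each sex: Hspb1, a small chaperone, was 236 and 186 CPM in XX WT and 94.6 to 103 CPM in the mutants. Hspb1 did not pass without XX WT replicate 1 in either sex (edgeR adjusted p up to 0.135 in XX and 0.115 in XY). Of 14 epithelial keratin and junction genes tested, F11r and Cdh2 fell in both sexes and Cdh1 rose in XY. Igfbp2, which binds insulin-like growth factors, was 411 and 372 CPM in XX WT, 112 and 69.5 CPM in XX +KTS KO, and 260 and 171 CPM in XY +KTS KO, and fell in XX (edgeR adjusted p = 0.0046, and 0.062 without XX +KTS KO replicate 2). Of the 7 adrenal cortex genes, 4 were tested, and Star rose in each sex and Mrap in XY. These 7 genes summed to 12.1 and 7.69 CPM in XX WT and 16.9 to 37.0 CPM in the mutants. In the unselected cells they summed to 12.8 and 11.4 CPM in XX WT and 14.2 to 25.7 CPM in the mutants. The part of adrenal cortex genes in the steroid result was not tested. The calls named here for Zim1, Dlk1, Mest, Ndn, Phlda2, Mvk, Msmo1, Mvd, F11r, Cdh2, Cdh1 and Mrap were each lost without at least 1 library, with the largest edgeR adjusted p per gene from 0.0512 (F11r in XY) to 0.297 (Mest in XX).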
